A study of Mus musculus with 2 samples.

Results

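Mir221 and Mir222 are a pair of clustered microRNA (miRNA) genes on the mouse X chromosome, and their levels are described here in the juvenile hippocampus. They were chosen by name, as the 2 of 2202 counted miRNA genes that carry these symbols in the GENCODE M21 annotation, and both were detected, with far more than the minimum of 10 counts in both libraries. The data are small RNA sequencing of 2 male libraries of mouse strain B6CASTF1/J, the F1 cross of C57BL/6J with CAST/EiJ. The age was 25 days, and the tissue was labelled layer of hippocampus. The libraries are biological replicates 1 and 2 of 1 group, and their labels give separate biosamples under 1 donor entry. Whether they come from 1 animal or 2 is not clear from the labels, so part or all of the spread between them may be technical. No treatment, mutant or second tissue was included, and a male carries 1 X chromosome, inherited from the mother. Gene-assigned reads numbered 5183641 in replicate 1 and 5871233 in replicate 2, and levels are given as counts per 1000000 of these reads (CPM). Mature miRNAs are all of about the same length, so levels of different genes were compared without scaling to length. Other differences between genes in how readily their reads are recovered were neither corrected for nor tested. Comparisons between genes are therefore of counts.

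A miRNA is cut from a hairpin precursor, is loaded into an Argonaute protein and represses messenger RNAs that pair with its seed, bases 2 to 8 from its 5′ end. miR-221 and miR-222 are processed from a common primary transcript and, sharing a seed, can bind the same sites. In human cells they are known for repressing the cell cycle inhibitors CDKN1B (p27) and CDKN1C (p57), the receptor tyrosine kinase KIT and the pro-apoptotic protein BBC3, and they are abundant in endothelial and vascular smooth muscle cells. In rat PC12 cells, both are induced by nerve growth factor.

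The mature sequences are shown because the seed is what makes the pair one family. They were taken from RefSeq on GRCm38.p6 and are written 5′ to 3′ with the seed in capitals.
miR-221-3p: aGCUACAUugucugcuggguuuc
miR-222-3p: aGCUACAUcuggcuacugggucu
miR-221-5p: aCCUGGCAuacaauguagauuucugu
miR-1928: aGCUACAUugccagcuc
miR-221-3p lies at chrX:19146307-19146329, miR-221-5p at chrX:19146344-19146369 and miR-222-3p at chrX:19146901-19146923, all on the minus strand, and miR-1928 lies at chr1:74206562-74206578 on the minus strand. The first 8 bases of miR-221-3p and miR-222-3p were identical, and the first difference, counted from the 5′ end, was U9C. In a global alignment 19 of 24 positions were identical. miR-221-5p, from the other arm of the hairpin, has another seed. Of the 1738 mature entries in the table, 3 carried the seed GCUACAU, and the third, miR-1928, shared 10 leading bases with miR-221-3p and 8 with miR-222-3p. Its gene Mir1928 had 0 counts in replicate 1 and 0 in replicate 2, which allows a level of up to 0.579 and 0.511 CPM, for counting error only. Of the genes with this seed among these entries, Mir221 and Mir222 thus had counts in these libraries and Mir1928 had none. By symbol RefSeq covered 1032 of the 2202 counted genes, so the search for the seed is not complete. It held no entry for miR-222-5p.

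The hairpins are shown because the counts are per hairpin gene, with the 3p arm in capitals.
Mir221: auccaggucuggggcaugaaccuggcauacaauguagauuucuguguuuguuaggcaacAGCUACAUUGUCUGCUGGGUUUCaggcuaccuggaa
Mir222: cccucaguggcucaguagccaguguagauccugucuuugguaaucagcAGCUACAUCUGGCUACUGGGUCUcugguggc
Mir221 (ENSMUSG00000065422.1) lies at chrX:19146294-19146388 and Mir222 (ENSMUSG00000065471.1) at chrX:19146893-19146971, both on the minus strand of mm10. Mir222 is therefore the upstream gene, with 504 bases between the hairpins. Over the whole hairpins 62.5% of 96 aligned positions were identical, and the longest stretch shared by both was 9 bases. The longest stretch shared with any of the other 2201 miRNA genes, on either strand, was 13 bases for Mir221, with Mir7672, and 12 bases for Mir222, with Mir1251. Both are far below the length of a mature miRNA. The pair thus differs from multi-copy miRNA genes, whose reads can align to several places and are left out of these gene counts.

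GENCODE M21 annotates no other gene over the span of 678 bases that holds both hairpins, so neither is exonic or intronic to an annotated host. The nearest gene upstream is Gm14636, a noncoding processed transcript on the same strand, which ends 10009 bases before Mir222. The nearest protein-coding gene is Tex13c3, 332448 bases upstream, and no other miRNA gene lies within 10 kb.

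**Figure D1:**
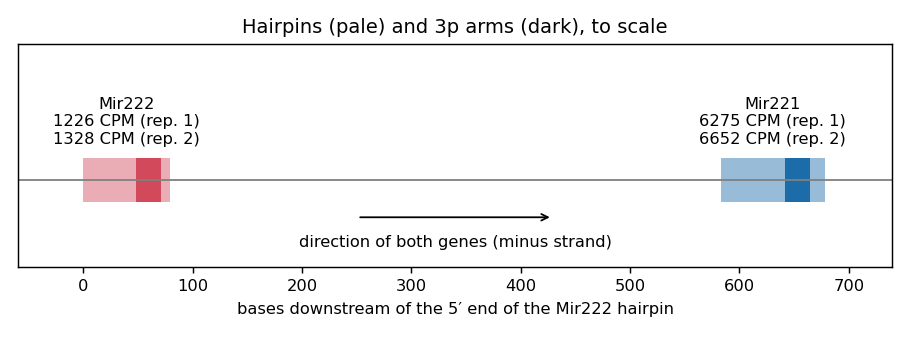
Map of the Mir222 and Mir221 hairpins, with the distance in bases from the 5′ end of the Mir222 hairpin on the x axis and the level of each gene in the 2 libraries above it. The downstream gene, Mir221, was the more abundant at 6275 and 6652 CPM, against 1226 and 1328 CPM for Mir222, with 504 bases between them.

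The shared seed pairs with AUGUAGC in a messenger RNA. No messenger RNA was measured here, so the following sites only show what the seed can read. The 7 letters ATGTAGC were searched on the sense strand of the longest annotated 3′ UTR of 6 mouse genes whose human counterparts are known targets. This list was written after the counts were seen but without use of them. At least 1 match was found in 5 of the 6, Cdkn1b, Cdkn1c, Kit, Bbc3 and Timp3, and none in the annotated UTR of Foxo3. Since the genes were listed as known targets, matches were likely in advance, so this count does not test whether matches are unusually common. The matches in the cell cycle inhibitors, the receptor and the apoptosis gene are shown with the seed match in capitals.
Cdkn1b: aaagcattggATGTAGCattgc
Cdkn1c: cctttcgttcATGTAGCaggaa
Kit site 1: tgggagatatATGTAGCaagac
Kit site 2: aaatattgaaATGTAGCaataa
Bbc3: tttctgcaccATGTAGCatact
They lie at chr6:134924421-134924442 (plus strand), chr7:143458921-143458942 (minus), chr5:75654982-75655003 and chr5:75656513-75656534 (plus) and chr7:16317321-16317342 (plus). All 5 have an A after the match, the base that favours Argonaute binding, whereas the match in Timp3 is followed by a T. Over all 21004 genes with an annotated 3′ UTR, 9.46% held these letters. Among UTRs of like length (0.8 to 1.2 times) the share was 22.2% for Cdkn1b, 4.60% for Cdkn1c, 15.2% for Kit, 6.01% for Bbc3, 23.4% for Timp3 and 28.5% for Foxo3.

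Both genes were well expressed in the hippocampus, with the counts of Mir221 about 5-fold above those of Mir222. Mir221 had 32529 counts in replicate 1 and 39054 in replicate 2, or 6275 CPM (95% exact Clopper-Pearson interval 6208 to 6344) and 6652 CPM (6586 to 6718), a mean of 6464 ± 266 CPM (SD, n = 2). Mir222 had 6356 and 7795 counts, or 1226 CPM (1196 to 1257) and 1328 CPM (1298 to 1357), a mean of 1277 ± 71.8 CPM. The values of the 2 genes did not overlap, and for each gene the SD was a small part of the mean, 4.12% for Mir221 and 5.62% for Mir222. The intervals cover counting error only. Together the genes gave 38885 and 46849 counts, 0.750% and 0.798% of gene-assigned reads (0.774% ± 0.0338, SD, n = 2). Neither gene had a count on the other strand, and the column that ignores strand held the same counts. The table has 1 row per gene, so reads of the 5p and 3p arms cannot be told apart. In bulk tissue, moreover, fewer cells of a type and less RNA per cell cannot be told apart.

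**Figure D2:**
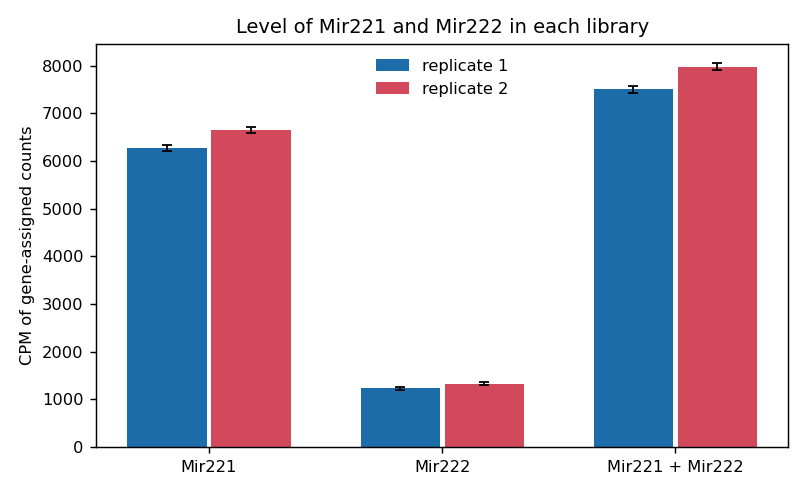
Level in CPM (y axis) of Mir221, Mir222 and their sum in replicate 1 (blue) and replicate 2 (red), with 95% exact intervals for counting error. Mir221 stood at 6275 and 6652 CPM and Mir222 at 1226 and 1328 CPM, so each gene differed little between the libraries beside the gap between the genes.

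Among all 2202 miRNA genes Mir221 ranked 31 by mean CPM (31 in replicate 1 and 29 in replicate 2) and Mir222 ranked 90 (88 and 90). Reads aligned to several places, 43.6% and 43.2% of reads in replicates 1 and 2, are not in these counts. Multi-copy genes may therefore rank too low, and the standing of the pair may be overstated. The median of the 445 detected genes was 51.2 CPM. For Mir221, 25 detected genes had both values above both of its own, 410 had both below, and 9 overlapped its range. For Mir222 these numbers were 80, 346 and 18. Just above Mir221 stood Mir149 (7102 ± 1764 CPM, SD, n = 2), Mir22 (7093 ± 6952 CPM) and Mir411 (6813 ± 1049 CPM), and each was above it in 1 library and below it in the other. Just below were Mir128-1 (6294 ± 123 CPM), Mir674 (5937 ± 486 CPM) and Mir138-1 (5856 ± 1194 CPM). Of these only Mir674 was lower than Mir221 in both libraries, and the levels of Mir128-1 and Mir138-1, which have second copies, are uncertain. Above Mir222 stood Mir543 (1345 ± 794 CPM), its fellow X-linked gene Mir501 (1287 ± 55.8 CPM) and Mir1839 (1284 ± 520 CPM), none of them above it in both libraries. Below it Mir666 (1237 ± 37.0 CPM), Mir7689 (1227 ± 48.5 CPM) and Mir708 (1202 ± 12.3 CPM) were lower in both libraries.

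The genes most like each member were found by the distance between log2(CPM + 1) values over the 2 libraries, a likeness that rests on level more than on any pattern. For Mir221 they were Mir128-1 at a distance of 0.10, Mir674 at 0.19 and Mir411 at 0.30. For Mir222 they were Mir666 at 0.073, Mir7689 at 0.083 and Mir708 at 0.14. Mir222 was not among the 3 nearest to Mir221, nor Mir221 among those nearest to Mir222, since the pair stands far apart in level.

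How steady was the pair between the libraries? The log2 ratio of replicate 1 over replicate 2 was -0.084 for Mir221 (95% exact interval -0.11 to -0.063), -0.11 for Mir222 (-0.16 to -0.067) and -0.089 for their sum (-0.11 to -0.070), with scaling to the gene-assigned total. Both genes were called different in a 2-sided exact binomial test of the counts, run on 472 genes averaging at least 10 counts, at a Benjamini-Hochberg adjusted p of 2.89e-14 for Mir221 and 6.29e-06 for Mir222. This test called 59.7% of all genes tested, 39.4% as lower and 20.3% as higher in replicate 1. It compares 2 libraries, takes reads as independent molecules and leaves out the spread between samples. The direction turned with the scaling. edgeR's TMM factors (trimmed mean of M-values) add 0.17 to every log2 ratio, which put Mir221 at 0.087 and Mir222 at 0.057, on the other side of 0 and with adjusted p-values of 3.13e-15 and 0.0370 in the binomial test. With TMM scaling 58.9% of genes were called, 29.9% as lower and 29% as higher in replicate 1. With DESeq2 size factors the log2 ratios were 0.091 and 0.061. A direction for the pair between these libraries therefore cannot be given.

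In size these differences were small beside those of other genes. Over the 291 genes averaging at least 100 counts, the median absolute log2 ratio was 0.34. Of the other 290, 35 (12.1%) had a smaller absolute log2 ratio than Mir221 and 49 (16.9%) a smaller one than Mir222. Under TMM scaling the numbers were 35 and 27, and under DESeq2 scaling 37 and 29. The common biological coefficient of variation over the genes tested, estimated with edgeR, was 0.320. It describes the spread between these libraries, which may not be a spread between animals.

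**Figure D3:**
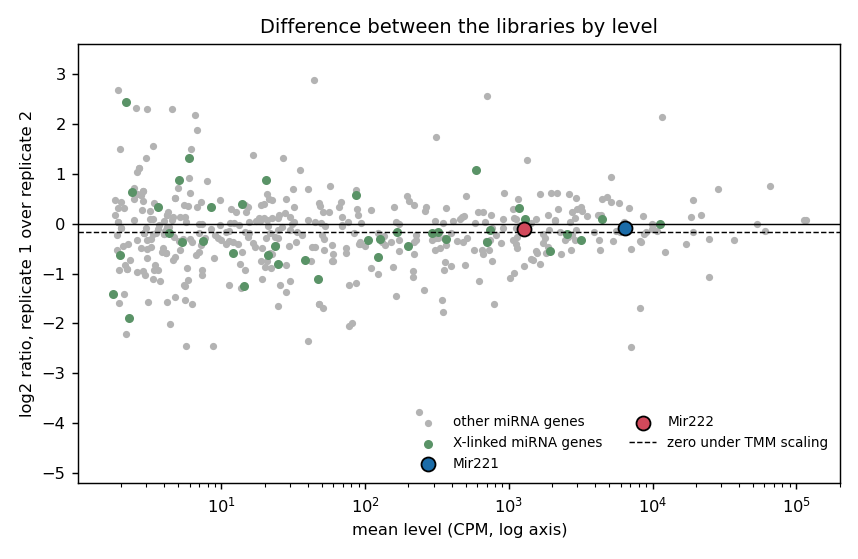
Log2 ratio of replicate 1 over replicate 2 (y axis) by mean CPM on a log axis (x axis) for the 472 genes averaging at least 10 counts, with X-linked genes in green and a dashed line where TMM scaling puts 0. Mir221 and Mir222 lie between the solid and the dashed line, at -0.084 and -0.11.

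The balance of the 2 genes does not depend on the scaling, since both are read in the same library. Mir221 had 5.12 counts per Mir222 count in replicate 1, with a 95% exact interval from 4.98 to 5.26, and 5.01 in replicate 2, with 4.89 to 5.13, a mean of 5.06 ± 0.0762 (SD, n = 2). In other terms, Mir221 made up 83.7% of the reads of the pair in replicate 1 (83.3 to 84.0) and 83.4% in replicate 2 (83.0 to 83.7). The log2 ratio of Mir221 over Mir222 was 0.031 higher in replicate 1 than in replicate 2, with a 95% normal interval from -0.022 to 0.083. A 2-sided Fisher's exact test of the counts found no shift beyond read sampling (p = 0.252).

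Other clustered genes were read in the same way, as pairs of neighbouring miRNA genes on the same strand with at most 10 kb between them and at least 10 counts of both in both libraries. There were 91 such pairs, and the balance of 63 of them, or 69.2%, differed between the libraries by Fisher's exact test with Benjamini-Hochberg adjustment over the pairs. That of Mir221 and Mir222 did not (adjusted p = 0.298). The median absolute shift was 0.55 in log2 units, and 5 of the other 90 pairs shifted by less than Mir221 and Mir222. These were Mir3093 with Mir9-1, Mir181a-1 with Mir181b-1, Mir337 with Mir493, Mir541 with Mir409 and Mir409 with Mir412. Pairs in a cluster of several genes share a gene, so they are not independent. Shallow pairs pass the test less readily, and in a set chosen after the values were seen, pairs with at least 1000 counts of both genes in both libraries, 26 of 31 differed. The 5 that did not pass were Mir221 with Mir222, Mir541 with Mir409, Mir409 with Mir412, Mir369 with Mir412 and Mir154 with Mir496a. Depth also let a shift as small as 0.054, that of Mirlet7e over Mir125a, pass with an adjusted p of 2.26e-06 in Fisher's exact test.

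By these counts the gap between the levels of Mir221 and Mir222 was not unusual. Their mean log2 ratio was 2.34, while the median pair, higher over lower gene, stood at 3.13. Of the other 90 pairs, 31 (34.4%) were closer in level. Several pairs hold a multi-copy gene, such as Mir16-1, Mir16-2 or Mir181a-2. The count of such a gene lacks the reads that fit more than 1 copy, so the ratio of its pair may be distorted. Whether the gap is typical of clustered genes therefore cannot be settled by this median. In 21 pairs both genes had a mature arm with the same seed. The balance of 17 of these 21 (81.0%) differed between the libraries, beside 69.2% of all 91 pairs. Their median log2 ratio was 2.88. This value and the calls of a shift in balance are open to the same distortion by multi-copy genes. Among the other 20, 1 pair, Mir181a-1 with Mir181b-1, shifted by less than Mir221 and Mir222. The other same-seed pairs that did not pass were Mir181a-1 with Mir181b-1 (adjusted p = 1 in Fisher's exact test, shift of -0.013), Mir29c with Mir29b-2 (adjusted p = 0.876, shift of 0.032) and Mir181b-2 with Mir181a-2 (adjusted p = 0.0505, shift of 0.31).

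Another cluster of 2 genes is that of Mir132 and Mir212, activity-induced neuronal miRNAs that also share a seed (AACAGUC) and lie on a common transcript. Mir132 had 14669 and 19562 CPM in replicates 1 and 2, and Mir212 had 493 and 451 CPM. Mir132 had 29.7 counts per Mir212 count in replicate 1 and 43.4 in replicate 2, a shift of -0.55 in log2 units (Fisher's exact test, adjusted p = 2.43e-40 over the 91 pairs). The vessel wall genes Mir143 and Mir145a had a ratio of 7.37 in replicate 1 and 19.5 in replicate 2, a shift of -1.41. Mir191 over Mir425 was 17.8 and 11.7, a shift of 0.60, and Mir34c over Mir34b, multiciliated cell miRNAs, was 61.0 and 32.5, a shift of 0.91. These 4 pairs were picked by name, and the first and the last share a seed. All 4 passed the test, as did 69.2% of all 91 pairs, with both directions of shift among them.

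**Figure D4:**
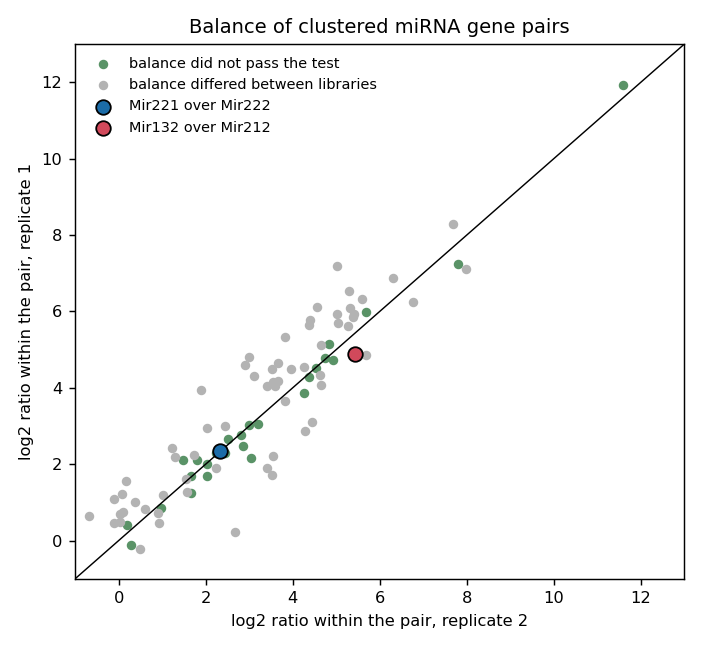
Log2 ratio of the more over the less abundant gene in replicate 1 (y axis) and replicate 2 (x axis) for 91 pairs of neighbouring miRNA genes, with pairs that passed Fisher's exact test in grey and the others in green. Mir221 over Mir222 lies on the line of equality at 2.36 and 2.32, and Mir132 over Mir212 lies below it.

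Of the 142 miRNA genes on the X chromosome 38 (26.8%) were detected, against 445 of all 2202 (20.2%), and 82 had no count in either library. By counts that leave out reads aligned to several places, Mir221 ranked 2 among X-linked genes, after Mir652 (11200 and 11224 CPM), and Mir222 ranked 8. Mir361 (4610 and 4306 CPM) followed Mir221 and was lower in both libraries. X-linked genes took 3.67% of gene-assigned reads in replicate 1 and 3.85% in replicate 2, and Mir221 and Mir222 made up 20.4% and 20.7% of these (20.6% ± 0.179, SD, n = 2). The median log2 ratio of the 42 X-linked genes tested was -0.20, beside -0.18 over all 472 genes. Of the 42, 8 were called higher and 23 lower in replicate 1 by the binomial test, beside 20.3% higher and 39.4% lower over all genes tested. With TMM scaling 13 were higher and 12 lower, beside 29% and 29.9% over all genes.

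**Figure D5:**
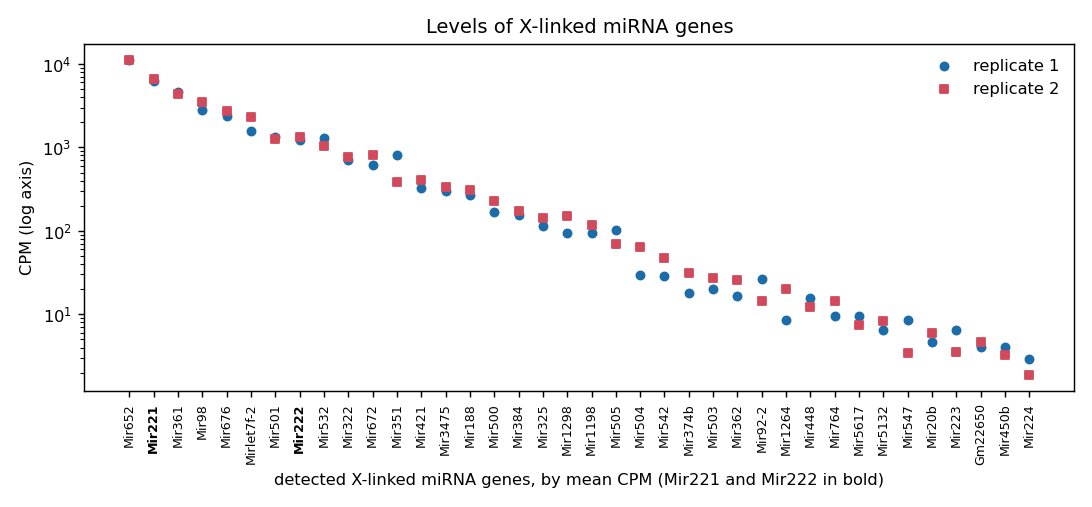
Level in CPM on a log axis (y axis) of the 38 detected X-linked miRNA genes in order of mean CPM (x axis), in replicate 1 (blue circles) and replicate 2 (red squares). Mir221 stands next to the top at 6275 and 6652 CPM, and Mir222 eighth at 1226 and 1328 CPM.

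Each gene of 2 lists of other miRNAs known for acting on the cell cycle was below Mir221 in both libraries. Of the 444 other detected genes, 410 (92.3%) had both values below both of its own, so this standing does not mark out the 2 lists. The Mir17 cluster and its paralogous clusters, which promote proliferation, had 9 of 15 genes detected, beside 20.2% of all 2202 counted genes. The highest were Mir93 (2434 and 1989 CPM), Mir17 (1138 and 1049 CPM) and Mir92-1 (717 and 614 CPM). The summed level of these 15 genes was 4849 and 4570 CPM, below that of Mir221 alone in both libraries. Both lists hold multi-copy genes, such as Mir19b-1 and Mir19b-2, which had no counts, and Mir16-1 and Mir16-2. Their reads that align to several places are left out, so these levels and sums may be too low beside Mir221. Of the 11 tested, 5 were called higher and 4 lower in replicate 1, beside 20.3% higher and 39.4% lower over all genes tested, and the median log2 ratio was -0.36, beside -0.18 over all genes. The genes of the miR-15, miR-16, miR-195, miR-497 and miR-34 families, which restrain the cell cycle, were listed under 11 names. Of these names, 9 matched a counted gene and, beside 20.2% of all genes, those 9 were detected. They were led by Mir195a (654 and 1396 CPM), Mir497 (756 and 993 CPM) and Mir34c (600 and 410 CPM), with a summed level of 3115 and 4493 CPM. Of the 9, 2 were called higher and 6 lower in replicate 1, and the median was -0.39, to be read beside the same shares and median over all genes. With TMM scaling the counts were 5 higher and 3 lower for the first list and 2 higher and 6 lower for the second. The shares over all genes tested were then 29% higher and 29.9% lower.

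Markers of the cells in which the pair is known to be abundant were present. The endothelial gene Mir126a had 5300 and 5849 CPM, below Mir221 in both libraries, and the smooth muscle genes Mir143 and Mir145a had 3534 and 2801 CPM and 480 and 143 CPM. Mir126b and Mir145b had no counts. The summed vessel level over the 5 genes was 9313 and 8794 CPM, beside 7501 and 7979 CPM for the sum of Mir221 and Mir222. The log2 ratio of replicate 1 over replicate 2 was -0.14 for Mir126a, 0.34 for Mir143 and 1.74 for Mir145a with scaling to the gene-assigned total. With TMM scaling, which adds 0.17 to every log2 ratio, that of Mir126a was 0.029. Any gene with a small negative ratio changes sign under this shift, so no likeness to the pair follows. The part of vessel cells in the level of the pair was not tested. For the tissue label, 7 of 9 neuron-enriched genes were detected, beside 20.2% of all 2202 counted genes. The 9 had a summed level of 32978 and 34808 CPM, of which Mir132 alone gave 14669 and 19562 CPM. The 3 copies of the neuronal Mir124a had at most 16 counts each. Reads that align to more than 1 copy are left out of the gene counts, so the level of this miRNA cannot be read from them. The 3 red blood cell genes together reached 41.9 and 56.9 CPM, and the 5 microglia and leukocyte genes 1742 and 1695 CPM. The 3 oligodendrocyte genes reached 5250 and 6676 CPM.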

How the data were processed

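The authors deposited raw counts of reads per miRNA gene for 2 microRNA sequencing libraries of total RNA, size range under 30 bases per the labels, on mm10 with GENCODE M21 per the deposited text file. Which aligner and counter were run is not given in the sources used here. The deposited counts hold 3 columns (without regard to strand, on the gene's strand, on the other strand). The gene's strand was used. The 4 rows without a gene stayed out of library sizes. In replicates 1 and 2 they held 43.6% and 43.2% of reads as aligned to several places, 14.1% and 15.5% as unmapped, and 5.04% and 4.59% as on no feature.

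Symbols and coordinates came from GENCODE M21, and sequences from RefSeq (GRCm38.p6, where 1032 of 2202 counted genes matched by symbol) and the GENCODE transcripts. CPM used the gene-assigned total. Exact binomial, Fisher and Clopper-Pearson (95%) methods were run in scipy 1.17.1. The binomial and Fisher steps were tried on simulated counts with read sampling only, without further spread between libraries. With 1 group, edgeR 4.0.16 gave TMM factors and the common dispersion, and DESeq2 1.42.0 gave size factors. Alternatives were these scalings, the strand column, the total, the count minimum, the pseudocount, multi-copy genes, the cluster distance and each library alone. Members, lists and named genes were chosen with earlier results of these data known. The named genes are the members, their 3 neighbours on each side in level, the 3 most alike, the 3 highest of the X-linked and cell cycle lists, the cell type markers and 4 other clusters.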

Additional observations from a re-analysis of the deposited data

How the results depend on the processing

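No paired analysis was possible because both libraries belong to 1 group. The log2 ratio of replicate 1 over replicate 2 reversed with TMM scaling, at 0.087 for Mir221, 0.057 for Mir222 and 0.082 for their sum, and with DESeq2 size factors, at 0.091, 0.061 and 0.086. The 2 scalings shift all genes by 0.17 and 0.18. With reads aligned to several places added to the total, the levels were 2975, 588 and 3562 CPM for Mir221, Mir222 and the sum, and in the column that ignores strand, which has a smaller total, they were 6893, 1362 and 8255 CPM. Ranks were 29 for Mir221 and 81 for Mir222 in that column, and 28 and 75 without genes that share 20 bases with a gene elsewhere, which leaves fewer genes to rank. With each library alone they ran from 29 to 31 and from 88 to 90. The number of clustered pairs whose balance differed was 40 of 58 with at most 1 kb between genes, an alternative chosen after seeing the data, against 63 of 91 with 10 kb. In that and the other pair settings the balance of Mir221 and Mir222 did not pass Fisher's exact test (adjusted p from 0.275 to 0.300). Over all results and alternatives run, 45 values stayed the same, 15 moved and 6 reversed. With 2 libraries of 1 group, no spread between conditions can be estimated.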
